A study of Mus musculus with 8 samples.

Results

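The genes described here are the 8 that make up the LIN28B and HMGA2 program of fetal blood stem cells: *Lin28a*, *Lin28b*, *Hmga1*, *Hmga2*, *Igf2bp1*, *Igf2bp2*, *Igf2bp3* and *Arid3a*. They were found by matching the Ensembl identifiers of the count table to gene symbols of GRCm38, and all 8 were among its 55487 genes. Their RNA was measured by bulk RNA-seq in 8 samples of 500 long-term hematopoietic stem cells each (LT-HSCs, sorted as lineage-, SCA1+, cKIT+, CD48- and CD150+) from mouse fetal liver at E14.5. *IκBα*, the gene *Nfkbia*, encodes the inhibitor that holds NF-κB in the cytoplasm, and the 3 genotypes of a targeted knock-out line (Nfkbia tm1Bal) were wild type (WT, 3 samples), heterozygous (HET, 3 samples) and homozygous (KO, 2 samples). WT1, WT2 and HET1 came from male embryos and are labelled as total RNA, and WT3, HET2, HET3, KO1 and KO2 came from female embryos and are labelled as polyA RNA, so that sex and this label cannot be told apart. The knock-out is a germline allele, so that IκBα is missing from every cell of a KO embryo and not from blood cells alone. The methods give RNA from 3 mice of each genotype, of which 1 KO sample was discarded for its sequencing quality, so each sample was taken as 1 animal.

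LIN28A and LIN28B are RNA-binding proteins that bind the precursors of the let-7 microRNAs and stop them from maturing. Mature let-7 represses mRNAs that carry sites for it in the 3′UTR, and among its known targets are *Hmga2*, the *Igf2bp* genes, *Arid3a* and the *Lin28* genes themselves. LIN28B is known as a switch of fetal against adult hematopoiesis: it is high in fetal HSCs and falls after birth, when let-7 rises, and HMGA2 acts below it in the self-renewal of fetal HSCs. Several kinds of protein lie at the ends of this pathway: HMGA1 and HMGA2, small chromatin proteins that bind AT-rich DNA, IGF2BP1 to IGF2BP3, which bind mRNAs and keep them stable, and ARID3A, a DNA-binding protein of early B cells and fetal blood cells.

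The sequences that join these genes are the let-7 seed and its matches, and they are shown because this known link, and not a value in these data, groups the genes. In the RefSeq annotation of GRCm38.p6, 10 mature let-7 names were found, of which 9 share the seed GAGGUAG at bases 2 to 8. Shown are let-7a, let-7g, which has another 3′ part, and let-7j, the single one with another seed, 5′ to 3′ with the seed in capitals.
let-7a-5p (chr13:48538239-48538260, minus strand): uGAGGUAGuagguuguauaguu
let-7g-5p (chr9:106178846-106178867, plus strand): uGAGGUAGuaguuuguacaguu
let-7j (chr3:140028281-140028304, plus strand): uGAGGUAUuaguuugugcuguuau
The matching site in an mRNA is CTACCTC (7 bases, the complement of the shared seed), or CTACCTCA (8 bases) with an A opposite the first base of the microRNA. It was searched on the sense strand of the longest annotated 3′UTR of each gene in GENCODE M21. For each gene, the 8-base match nearest the stop codon, or for *Hmga1* its single 7-base match, is printed with the 14 bases before it, and capitals mark the match.
*Lin28a* (chr4:134005189-134005210, minus strand): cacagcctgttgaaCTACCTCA
*Lin28b* (chr10:45381022-45381043, minus strand): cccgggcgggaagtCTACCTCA
*Hmga1* (chr17:27563278-27563299, plus strand): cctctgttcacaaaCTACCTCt
*Hmga2* (chr10:120364224-120364245, minus strand): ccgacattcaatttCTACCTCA
*Igf2bp1* (chr11:95961778-95961799, minus strand): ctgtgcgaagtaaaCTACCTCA
*Igf2bp2* (chr16:22059473-22059494, minus strand): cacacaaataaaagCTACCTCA
*Igf2bp3* (chr6:49086787-49086808, minus strand): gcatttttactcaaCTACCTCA
*Arid3a* (chr10:79953896-79953917, plus strand): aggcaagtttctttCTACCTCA

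All 8 genes hold at least 1 match of 7 bases, and all but *Hmga1* hold 1 of 8 bases. Among the 14470 tested genes with an annotated 3′UTR the shares were 10.2% and 3.6%, and among the 7775 of these whose 3′UTR is 1000 bases or longer they were 15.9% and 5.6%. *Hmga2* has 4 matches in 3014 bases, *Lin28b* has 4 in 4445 bases and *Igf2bp1* has 4 in 6337 bases, a number that 12 tested genes (0.08%), these 3 included, reach. *Lin28a* has 2 in 2775 bases and *Arid3a* has 2 in 3082 bases, whereas *Hmga1* (1183 bases), *Igf2bp2* (1784 bases) and *Igf2bp3* (2119 bases) have 1 each. *Igf2bp1* is the gene with the most 8-base matches, 3 of its 4. A match of letters is a description and not a shown site of repression, and these libraries did not measure mature microRNAs.

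**Figure D1:**
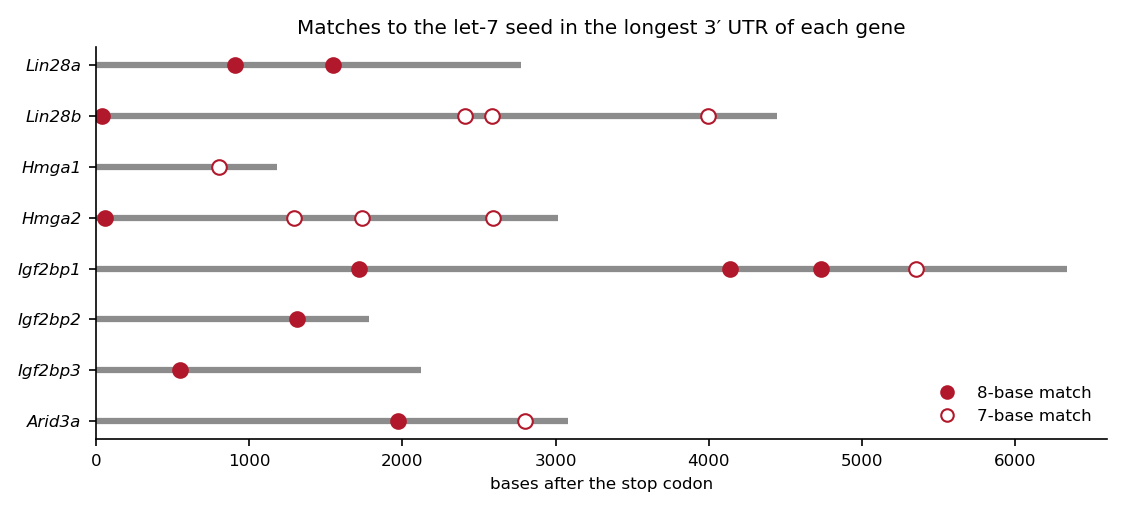
Positions of the let-7 seed matches along the 3′UTR of each of the 8 genes, with the distance from the stop codon in bases on the x axis and a bar for the length of each 3′UTR. Filled and open marks stand for the 8-base and 7-base matches, and *Hmga2*, *Lin28b* and *Igf2bp1* carry 4 matches each.

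The libraries held 17895973 to 21720972 reads assigned to genes, and levels are given as CPM, counts divided by library sizes that were scaled by the TMM method. *Nfkbia* (chr12:55489410-55492647, minus strand) was at 1 and 0 reads in the KO samples against 243 to 1621 reads in the other samples, at least 230.1-fold lower in KO against a floor of 3 reads per library. The sorted cell type was compared with 10 stem cell markers, whose summed level was 1833 and 1891 CPM in WT1 and WT2, 1790 and 1182 CPM in KO1 and KO2, 669 and 575 CPM in HET1 and HET2, and only 291 CPM in WT3 and 236 CPM in HET3. *Ly6a*, which encodes the SCA1 protein used in the sort, was at 5 CPM in WT3 and at 0 reads in HET3, against 14.1 to 77.2 CPM in the other 6 samples, while *Kit* was between 135 and 231 CPM in all 8. The 8 hepatoblast markers summed to 1490 CPM in WT3 and 748 CPM in HET3, against 50.0 to 301 CPM in the others. WT3 and HET3 thus stood apart from their labels, and values without them are given beside those of the members and of the named list genes. One feature of the model bears on every KO value: both KO samples are female, so that with sex in the model the KO value is KO1 and KO2 against WT3, HET2 and HET3, and the male samples only set the sex term and the spread. Without WT3 and HET3, it is the KO samples against HET2 alone.

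Scaled to exon length and library size (RPKM, over merged exons), the level of *Hmga1* was the highest of the 8 genes in every sample, with a mean of 66.0 ± 19.3 (SD, n = 8). *Hmga2* (15.8 ± 9.76) and *Igf2bp2* (13.6 ± 7.72) followed by their means. Within samples, *Hmga2* was above *Igf2bp2* in all but WT3 and HET3. *Igf2bp3* was at 8.60 ± 0.876, and it was above *Igf2bp2* in WT3, HET2 and HET3. *Lin28b* (5.78 ± 1.73), *Arid3a* (5.27 ± 2.37) and *Igf2bp1* (4.80 ± 2.03) had lower means and overlapped each other. The order held least in WT3, where *Hmga2* took place 6 of 7 with 4.41 RPKM, and in HET3, where it was last with 1.34 RPKM. With the length of the longest transcript in place of merged exons, *Igf2bp1* and *Arid3a* changed places. *Lin28a* (ENSMUSG00000050966, chr4:134003330-134018841, minus strand) had 0 reads in all 8 samples, which allows up to 0.1253 to 0.1779 CPM per sample, and it was not tested.

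The 7 genes that were read fell into those that varied widely between samples and those that did not. As a standard deviation of log2 CPM over the 8 samples, *Hmga2* varied by 1.51, above 88.1% of the 12862 genes with a mean of 1 CPM or more, and *Igf2bp2* by 1.005, above 78.9% of them. *Arid3a* (0.71) and *Igf2bp1* (0.64) came next. *Lin28b* varied by 0.46, close to the median gene, *Hmga1* by 0.40 and *Igf2bp3* by 0.15, above 7% of the genes.

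*Lin28b* (ENSMUSG00000063804, chr10:45376620-45486395, minus strand) is the member of the LIN28 pair that was present. Its level was 37.2, 30.4 and 58.3 CPM in WT1, WT2 and WT3, 57.2, 60.99 and 76.9 CPM in HET1, HET2 and HET3, and 37.7 and 60.4 CPM in KO1 and KO2, from 728 to 1296 reads per sample. The means were 42.0 ± 14.6 CPM in WT (SD, n = 3) and 65.0 ± 10.5 CPM in HET (SD, n = 3), and all 3 genotypes overlapped. The KO samples lay apart from each other, KO1 beside WT1 and KO2 beside HET2.
In KO against WT/HET the edgeR quasi-likelihood test gave a log2 fold change of -0.41 ± 0.31 (SE), with a 95% interval from -1.13 to 0.30 and an adjusted p of 0.42. The exact permutation test of log2 CPM, two-sided and without sex, gave p = 1, where 2 samples against 6 cannot go below 0.0714. Without WT3 and HET3 the log2 fold change was -0.34 (unadjusted p = 0.475). With 1 sample left out it ran from -0.79 without KO2 to -0.11 without KO1, with unadjusted p from 0.0753 to 0.764.

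*Hmga2* (ENSMUSG00000056758, chr10:120361275-120476469, minus strand) spanned the widest range of the 8 genes, 21.8-fold between the highest and the lowest sample. Its level was 159, 198 and 29.9 CPM in WT1, WT2 and WT3, 86.3, 92.6 and 9.08 CPM in HET1, HET2 and HET3, and 165 and 119 CPM in KO1 and KO2. WT3 and HET3 were the lowest of the 8, KO1 lay between WT1 and WT2, and KO2 lay below these and above WT3 and all HET samples. The WT samples therefore averaged 129 ± 88.0 CPM (SD, n = 3) and the HET samples 62.7 ± 46.5 CPM (SD, n = 3).
In KO against WT/HET, *Hmga2* was 3.22-fold higher with edgeR, a log2 fold change of 1.69 ± 0.76 (SE; 95% interval from -0.05 to 3.42), with an unadjusted p of 0.0553 and an adjusted p of 0.207. DESeq2 with apeglm gave a shrunken log2 fold change of 0.85 (unadjusted p = 0.0278, adjusted p = 0.0955). The exact permutation test gave p = 0.357. Without WT3 and HET3 the log2 fold change was 0.58 (unadjusted p = 0.282), and without the sex term it was 0.56 (unadjusted p = 0.529). Leaving out HET2, so that the KO samples stood against WT3 and HET3 only, gave 2.86 and passed the call (adjusted p under 0.05 and a log2 fold change beyond 1), as did 2.25 with WT alone as the reference, which is WT3.

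*Igf2bp2* (ENSMUSG00000033581, chr16:22059009-22163299, minus strand), whose product binds many mRNAs of growth and metabolism and whose transcription HMGA2 is known to promote, had a like order of samples. It was at 167, 152 and 41.6 CPM in WT1, WT2 and WT3, at 85.8, 51.4 and 26.9 CPM in HET1, HET2 and HET3, and at 164 and 115 CPM in KO1 and KO2. All 3 male samples lay above all 3 female WT and HET samples, WT3 and HET3 were again the lowest, and both KO samples, although female, lay within the range of the male samples. The WT mean was 120 ± 68.6 CPM (SD, n = 3) and the HET mean 54.7 ± 29.6 CPM (SD, n = 3).
With all 8 samples, WT and HET pooled and sex in the model, it had the strongest KO value of the 7 genes. It was 3.49-fold higher with edgeR, a log2 fold change of 1.80 ± 0.35 (SE; 95% interval from 1.01 to 2.59), with an unadjusted p of 6.99e-04 and an adjusted p of 0.148, which is not a call. With DESeq2 and apeglm shrinkage, the tools named in the study's methods, *Igf2bp2* passed the call with a shrunken log2 fold change of 1.60 and an adjusted p of 0.00159. The log2 fold change was 1.41 without WT3 and HET3 (unadjusted p = 0.0203) and 0.67 without the sex term (unadjusted p = 0.315), and the exact permutation test, which has no sex term, gave p = 0.357. With edgeR, leaving out HET2 (2.03), taking WT alone as the reference (1.75) or using no filter beyond 1 read (1.80) brought it past the call. *Hmga2* had the larger value without HET2 (2.86) and with WT alone as the reference (2.25).

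*Arid3a* (ENSMUSG00000019564, chr10:79927043-79955018, plus strand) was at 40.1, 44.9 and 16.8 CPM in WT1, WT2 and WT3, at 21.1, 24.7 and 11.9 CPM in HET1, HET2 and HET3, and at 46.9 and 28.1 CPM in KO1 and KO2. The 2 lowest samples were once more HET3 and WT3, and KO1 was the highest of the 8. The means were 33.9 ± 15.0 CPM in WT and 19.2 ± 6.61 CPM in HET (SD, n = 3 each).
In KO against WT/HET it was 2.11-fold higher with edgeR (log2 fold change 1.07 ± 0.41 SE; 95% interval from 0.14 to 2.01; unadjusted p = 0.0294, adjusted p = 0.167). The log2 fold change was 0.57 without WT3 and HET3 (unadjusted p = 0.32) and 0.50 without the sex term (unadjusted p = 0.331), and DESeq2 with apeglm gave 0.73 with an adjusted p of 0.0882. Leaving out KO1 gave 0.66 (unadjusted p = 0.226), leaving out WT3 gave 1.02 (0.0788) and leaving out HET3 gave 0.84 (0.0879), so that each of these samples was needed for an unadjusted p under 0.05.

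**Figure D2:**
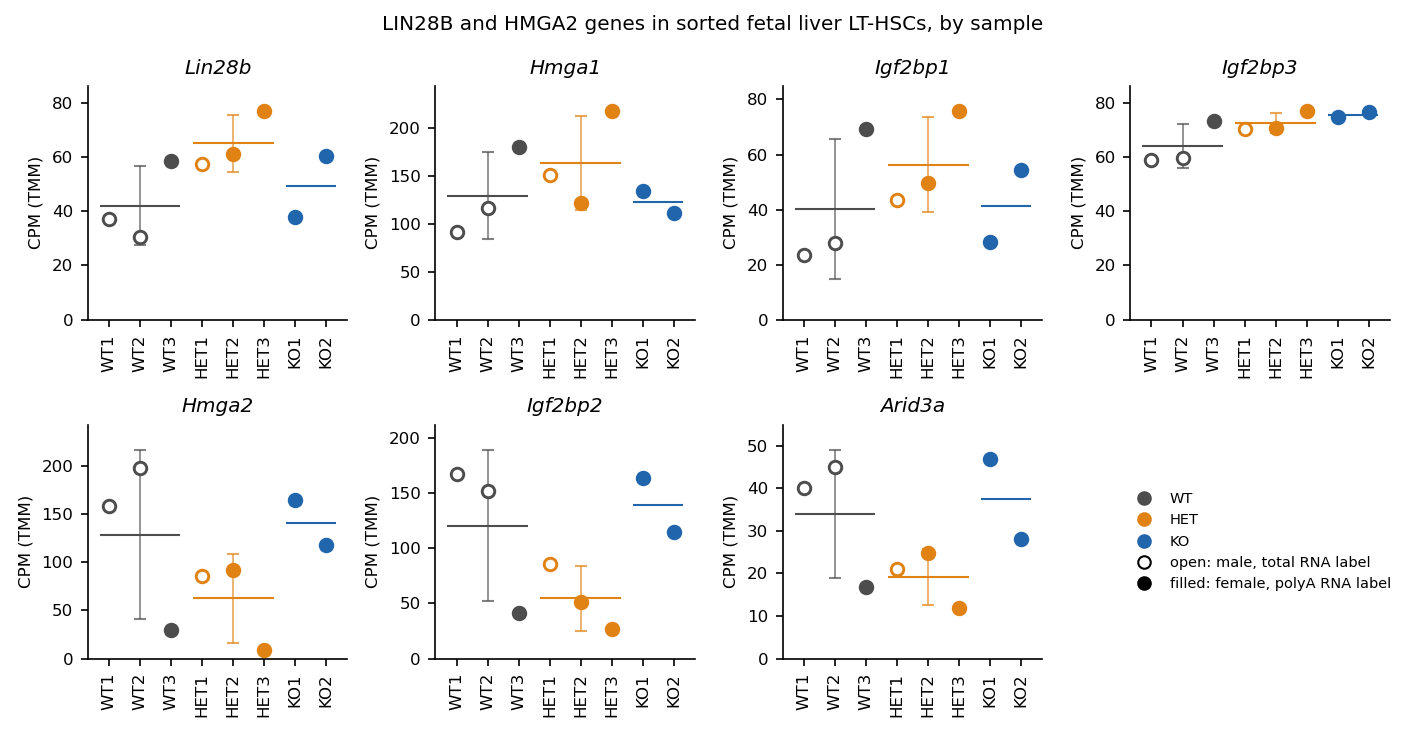
Level of each of the 7 genes with reads in each of the 8 samples, in TMM-scaled CPM on linear axes that start at 0. Points are samples, open for male and filled for female, horizontal lines are group means and bars are 1 SD over the 3 WT or 3 HET samples. *Hmga2*, *Igf2bp2* and *Arid3a* are lowest in WT3 and HET3, whereas *Igf2bp3* stays between 58.7 and 77.0 CPM.

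*Hmga1* (ENSMUSG00000046711, chr17:27556497-27563674, plus strand), the paralog of *Hmga2* and a common chromatin protein of dividing cells, went the other way in WT3 and HET3. Its level was 91.2, 117 and 179 CPM in WT1, WT2 and WT3, 151, 121 and 217 CPM in HET1, HET2 and HET3, and 134 and 111 CPM in KO1 and KO2. HET3 and WT3 were the highest, and the KO samples lay inside the range of the others.
A near-identical copy shares much of its sequence. *Hmga1b* (ENSMUSG00000078249, chr11:120762794-120764419, plus strand) holds 1403 of the 2553 different runs of 50 bases of the *Hmga1* exons (55.0%), and 89.0% of its own runs are in *Hmga1*, or 98.5% with 1 mismatch allowed. It had 806, 1033 and 1032 reads in WT1, HET2 and KO2, 29.3%, 30.1% and 31.3% of the reads of the pair, but only 32 to 77 reads (1.13% to 2.34%) in the other 5 samples. No genotype, sex or RNA label divides the samples in this way, and the cause was not tested.
With the counts of the pair summed, which was decided on once these values were known, the levels were 129, 118 and 183 CPM in WT1, WT2 and WT3, 154, 173 and 221 CPM in HET1, HET2 and HET3, and 136 and 162 CPM in KO1 and KO2. The log2 fold change in KO against WT/HET was -0.49 ± 0.29 (SE) for *Hmga1* alone, with an edgeR adjusted p of 0.302, and -0.37 ± 0.18 (SE) for the sum, with an adjusted p of 0.24. Without WT3 and HET3 *Hmga1* alone was at -0.01 (unadjusted p = 0.976), and with 1 sample left out it ran from -0.69 without HET2 (unadjusted p = 0.0329) to -0.30 without HET3 (unadjusted p = 0.334).

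**Figure D3:**
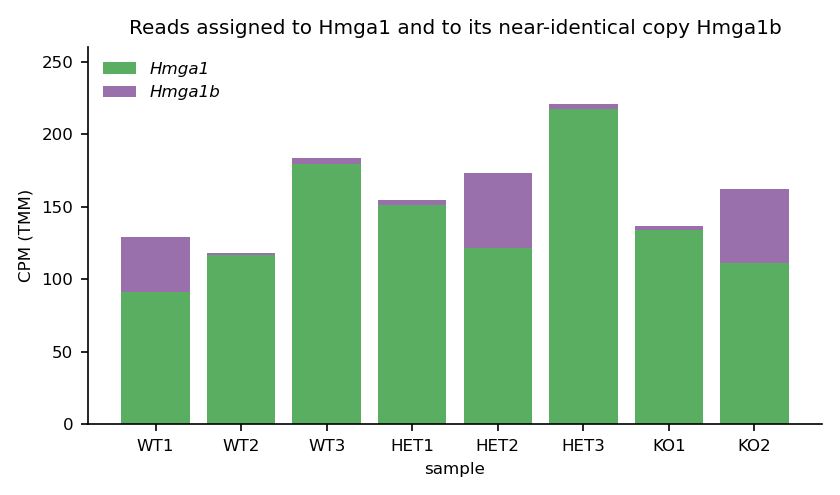
Levels of *Hmga1* (lower part of each bar) and of its near-identical copy *Hmga1b* (upper part) in TMM-scaled CPM in each of the 8 samples, on an axis from 0. WT1, HET2 and KO2 have between 806 and 1033 *Hmga1b* reads, and the other 5 samples have at most 77.

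*Igf2bp1* (ENSMUSG00000013415, chr11:95957163-96005940, minus strand), the mRNA-binding protein that is lost from most tissues after birth, had an order close to that of *Lin28b*. It was at 23.4, 27.8 and 69.4 CPM in WT1, WT2 and WT3, at 43.3, 49.7 and 75.8 CPM in HET1, HET2 and HET3, and at 28.1 and 54.5 CPM in KO1 and KO2. WT3 and HET3 were the highest, the 3 male samples were all below the 3 female WT and HET samples, and KO1 lay at the level of the male WT samples. The edgeR log2 fold change in KO against WT/HET was -0.65 ± 0.36 (SE), with an interval from -1.49 to 0.18 and an adjusted p of 0.282, and it was -0.30 without WT3 and HET3 (unadjusted p = 0.579). It rested on KO1 more than on KO2, with -1.21 without KO2 (unadjusted p = 0.0225) and -0.25 without KO1 (unadjusted p = 0.537).
*Igf2bp3* (ENSMUSG00000029814, chr6:49085223-49214957, minus strand), the third of the mRNA-binding proteins, differed by only 1.31-fold between its highest and lowest sample. It was at 58.7, 59.8 and 73.3 CPM in WT1, WT2 and WT3, at 70.3, 70.7 and 77.0 CPM in HET1, HET2 and HET3, and at 74.9 and 76.5 CPM in KO1 and KO2. The log2 fold change in KO was 0.04 ± 0.15 (SE), with an interval from -0.31 to 0.38 and an edgeR adjusted p of 0.898, and its sign turned with upper-quartile scaling. It was 0.07 without WT3 and HET3 (unadjusted p = 0.802). Some of its reads are uncertain, since 1529 bases of its exons overlap *Malsu1* on the opposite strand (1209 to 2172 reads) and the strand setting of the counts is not given in the sources used here. The overlap of *Hmga2* with 1700006J14Rik is 140 bases (141 to 1634 reads).

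The comparison of KO with WT/HET asks which genes differ when IκBα is absent. No member was called by edgeR, and of all 20610 genes tested 0 were called, a share of 0%, although 5196 genes had an unadjusted p under 0.05 and DESeq2 with apeglm called 1463. The 5196 genes, on which the background shares rest, became 1630 without KO1, 3219 without WT3, 3293 without HET3 and 412 without the sex term. *Igf2bp2* and *Arid3a* had an unadjusted p under 0.05 in the higher direction, 2 of the 7 tested, where 15.7% of all genes did. None of the 7 did in the lower direction, where 9.48% of all genes did. With DESeq2 and apeglm 1 of the 7 was called higher, against 8.73% of the genes with an adjusted p, and 0 were called lower, against 0.801%. No member had both KO samples above all 6 WT and HET samples (3.05% of all genes) or below them (1.85%). *Hmga2*, *Igf2bp2* and *Arid3a* had both KO samples above the 3 female WT and HET samples, 3 of 7, where 27.1% of all genes had, and 0 of 7 had them below, where 21.4% had. The median log2 fold change was 0.04 over the 7 genes and 0.13 over all genes. It was 0.41 over all genes with library sizes alone as the scaling, and values of the members are to be read against it. Counts of 2 or 3 among 7 genes are thus not set apart from backgrounds of this size. Without WT3 and HET3 the count at an unadjusted p under 0.05 was 1 (*Igf2bp2*), where 4.07% of all genes were higher and 1.02% lower. Without the sex term it was 0.

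**Figure D4:**
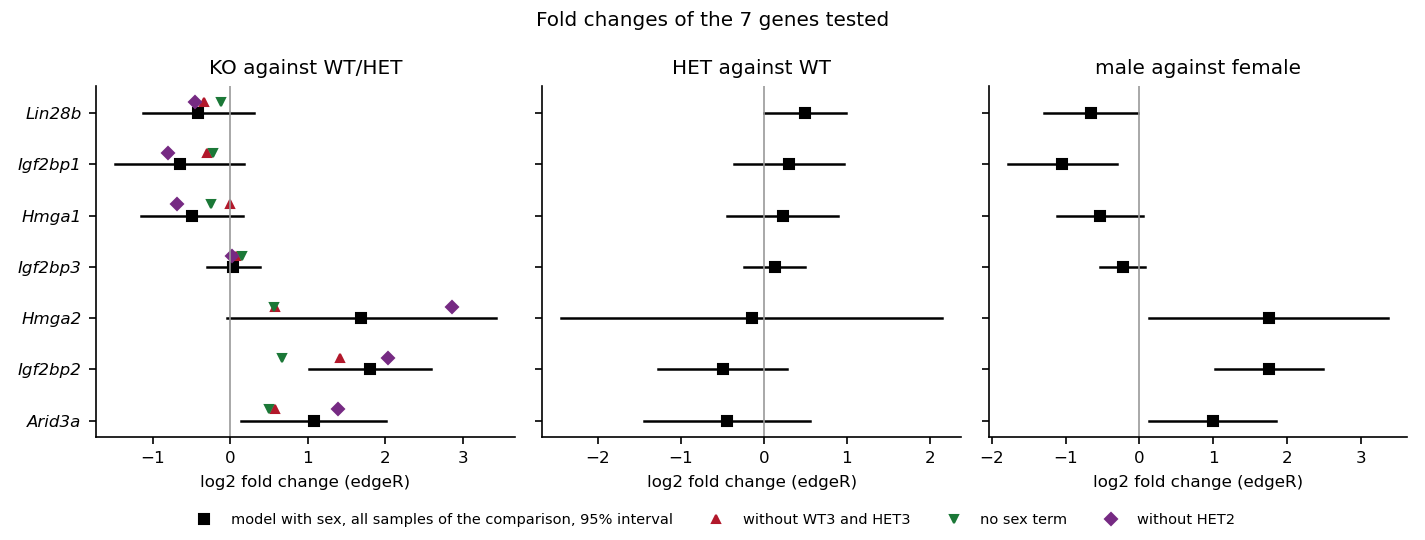
Log2 fold changes of the 7 genes from edgeR (x axis) with their 95% intervals as lines, for KO against WT/HET, HET against WT and male against female, and, for KO, the values without WT3 and HET3, without the sex term and without HET2 as colored marks. In KO against WT/HET *Igf2bp2* (1.80) and *Arid3a* (1.07) have intervals above 0, and in HET against WT *Lin28b* (0.50) does by a small margin.

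The comparison of HET with WT asks whether the loss of 1 copy of *Nfkbia* changes these genes. The mean *Nfkbia* level in HET was 0.489 of that in WT, without regard to sex or RNA label. The samples overlapped, with 45.3, 67.7 and 23.44 CPM in WT1, WT2 and WT3 and 23.35, 28.96 and 14.4 CPM in HET1, HET2 and HET3. With sex in the model, edgeR gave *Nfkbia* a log2 fold change of -0.69 ± 0.43 (SE; unadjusted p = 0.155, adjusted p = 0.932). No member was called, and 0 of the 20610 genes were (0%), with 747 genes at an unadjusted p under 0.05 and 16 calls by DESeq2 with apeglm. The 747 genes became 271 without WT2, 288 without WT1, 2896 without WT3 and 2924 without HET2. *Lin28b* was the single member with an unadjusted p under 0.05, 1 of 7 in the higher direction, where 1.80% of all genes were. Its log2 fold change was 0.50 ± 0.21 (SE), with an interval from 0.004 to 0.995, an unadjusted p of 0.0486 and an edgeR adjusted p of 0.932. None of the 7 was lower, where 1.82% of all genes were. HET1 (57.2 CPM of *Lin28b*) was above both male WT samples, and HET2 and HET3 (60.99 and 76.9 CPM) were above the female WT3 (58.3 CPM), yet HET1 was below WT3, so the genotypes overlap when the samples are not paired. The exact permutation test, without sex or pairs, gave p = 0.2, where 3 against 3 cannot go below 0.1. Leaving out WT1, WT2, HET1 or HET3 in turn left 0 members at an unadjusted p under 0.05.
No source says what a replicate number marks, and pairs of WT and HET samples by this number were assumed. In all 3 pairs *Lin28b*, *Hmga1*, *Igf2bp1* and *Igf2bp3* were higher in HET, and *Hmga2*, *Igf2bp2* and *Arid3a* were lower. The share of all genes with one direction in all 3 pairs is not given here. With the number as a block, the members at an unadjusted p under 0.05 were 3 others than *Lin28b*. *Hmga2* had a blocked log2 fold change of -1.28 (unadjusted p = 0.00488), *Igf2bp2* -0.80 (0.0131) and *Arid3a* -0.72 (0.0496), 3 of 7 in the lower direction, where 4.39% of all genes were. None was higher, where 0.820% of all genes were, and *Lin28b* was at 0.51 (unadjusted p = 0.0681). No gene was called, and 1073 genes had an unadjusted p under 0.05. Since WT2 and HET2 differ in sex, the blocked value rests on HET1 against WT1 and HET3 against WT3, so it leans on WT3 and HET3.
No member had all 3 HET samples on the same side of all 3 WT samples, as 9.19% of all genes had. *Hmga2* (-0.15), *Igf2bp2* (-0.49) and *Arid3a* (-0.45) had negative log2 fold changes and *Hmga1* (0.23), *Igf2bp1* (0.30) and *Igf2bp3* (0.13) positive ones, with unadjusted p from 0.174 to 0.882. HET1 had the highest sum of the 8 erythroid markers, 14376 CPM, against 1439 and 1113 CPM in WT1 and WT2. Without WT3 and HET3 the spread rests on WT1 against WT2 and the difference on HET1 against those 2 samples. Then 6 of the 7 had an unadjusted p under 0.05, as had 6027 of all genes, and *Hmga2* (-1.05) and *Arid3a* (-1.01) were among 1964 genes called, whereas *Igf2bp2* (-0.90), *Lin28b* (0.76), *Igf2bp1* (0.76) and *Hmga1* (0.54) were not called at a log2 fold change within 1, while *Igf2bp3* was at 0.25 (unadjusted p = 0.203). Leaving out HET2 also gave 6, and leaving out HET1 turned the sign of *Hmga1*, *Hmga2*, *Igf2bp1* and *Arid3a*.

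The sex term, which is also the RNA label, was larger in size than the KO term in 5 of the 7 genes. Both terms use WT3, HET2 and HET3 and are not independent. With male against female, *Igf2bp2* had a log2 fold change of 1.76 ± 0.32 (SE; edgeR adjusted p = 0.0895), *Hmga2* had 1.75 ± 0.71 (adjusted p = 0.131) and *Arid3a* had 0.99 ± 0.38 (adjusted p = 0.117), the 3 that were higher at an unadjusted p under 0.05, where 18.9% of all genes were. *Igf2bp1* at -1.04 ± 0.32 (adjusted p = 0.0919) and *Lin28b* at -0.65 ± 0.28 (adjusted p = 0.146) were the 2 that were lower at that p, where 13.6% of all genes were. *Hmga1* alone had -0.530 (edgeR unadjusted p = 0.0692), and the sum with *Hmga1b* had -0.525 (unadjusted p = 0.0116, adjusted p = 0.092). With the sum in place of *Hmga1*, the members at that p became 6. None was called, and 4 of all genes were (0.0194%). *Igf2bp2* had the 3 male samples above the 3 female WT and HET samples, as 21.3% of all genes had, and *Lin28b*, *Igf2bp1* and *Igf2bp3* had them below, 3 of 7, as 17.5% had. With WT3 and HET3 left out, the log2 fold change was 1.36 for *Igf2bp2* (unadjusted p = 0.0199), 0.64 for *Hmga2* (0.221), 0.49 for *Arid3a* (0.369), -0.69 for *Igf2bp1* (0.186) and -0.59 for *Lin28b* (0.207), so that 1 member in place of 5 had an unadjusted p under 0.05, while over all 20610 genes the number at that p went from 6679 to 1340.

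The level of 3 of the genes followed that of the stem cell markers across the samples. *Hmga2*, *Igf2bp2* and *Arid3a* were lowest in HET3 and WT3 and highest in WT1, WT2 and KO1, as was the summed level of the 10 markers, whereas for *Igf2bp1* and *Hmga1* HET3 and WT3 were the highest, and for *Lin28b* and *Igf2bp3* these 2 samples overlapped the others. WT3 and HET3 were both below the other 6 samples in 3 of the 7 genes, where 18.3% of all genes were, and both above them in 2 of 7, where 15.6% were.
Of the 10 stem cell markers, 10 had an unadjusted p under 0.05 in the higher direction in KO against WT/HET (15.7% of all genes), with a median log2 fold change of 2.76, and 2 did without WT3 and HET3 (4.07% of all genes; median 1.55). *Procr*, which encodes the EPCR protein of HSCs, was at 165 to 169 CPM in WT1 and WT2, 85.7 to 96.8 CPM in the KO samples, 30.6 to 36.3 CPM in HET1 and HET2, 8.49 CPM in WT3 and 1.13 CPM in HET3. The 8 hepatoblast markers ran from 52.9 to 1490 CPM in WT, from 146 to 748 CPM in HET and from 50.0 to 301 CPM in KO as a sum, with 0 of 8 past that p in KO in either direction (15.7% and 9.48% of all genes). The 8 erythroid markers ran from 1113 to 2801 CPM in WT, from 3067 to 14376 CPM in HET and from 690.3 to 2877 CPM in KO, with 8 of 8 higher in HET against WT at that p (1.80% of all genes). The summed megakaryocyte markers (67.3 to 1315 CPM in WT, 23.7 to 449 CPM in HET, 133 to 1079 CPM in KO) and endothelial markers (28.5 to 95.6, 35.2 to 46.5 and 66.1 to 82.2 CPM) had WT3 or HET3 at their lowest as well, and so did the stromal ones (HET3 lowest), which ran from 71.9 to 396, 48.8 to 86.5 and 116 to 151 CPM. The myeloid markers differed between these samples, with WT3 the highest of the 8 (1191 CPM) and HET3 the lowest (179 CPM). In bulk samples, fewer cells of a type and less RNA per cell cannot be told apart, and the part of these marker differences in the values of the 8 genes was not tested.

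**Figure D5:**
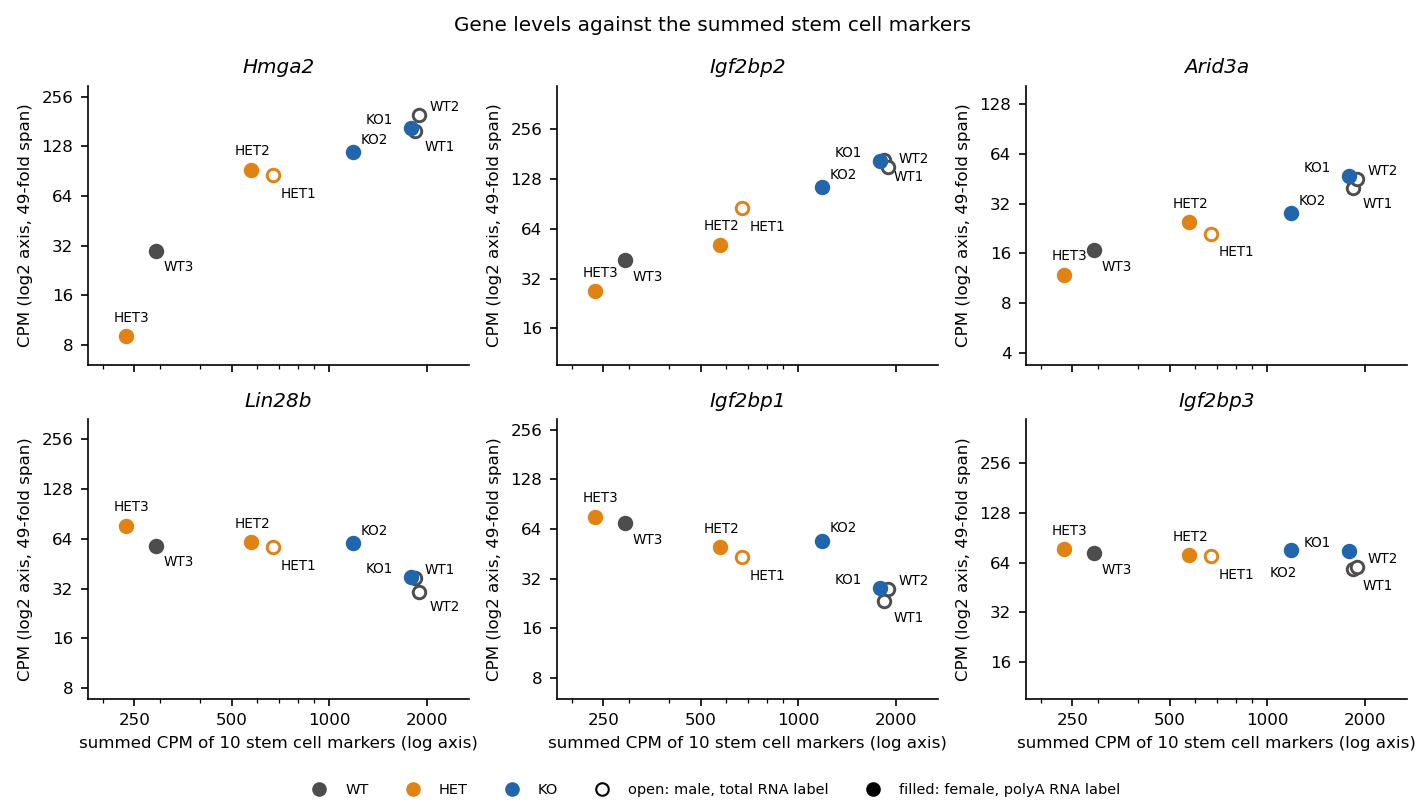
Level of 6 of the genes in CPM against the summed CPM of 10 stem cell markers, 1 point per sample, both on log axes with the same span in every panel. *Hmga2*, *Igf2bp2* and *Arid3a* are lowest where the markers are lowest (236 CPM in HET3 and 291 CPM in WT3), and *Igf2bp1* is highest there.

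Among the 12861 other genes with a mean of 1 CPM or more, those whose log2 CPM over the 8 samples, centered on its mean, lay nearest to *Lin28b* were *Nup50*, *Pcyt1a* and *Psmd3*, with root mean square differences of 0.08, 0.08 and 0.09 where *Lin28b* itself varied by 0.43. *Nup50*, a nuclear pore protein, went from 69.6 CPM in WT2 to 180 CPM in HET3. *Psmd3*, a proteasome subunit, went from 191 to 474 CPM in the same samples, and *Pcyt1a*, an enzyme of phosphatidylcholine synthesis, from 31.9 to 73.0 CPM. Nearest to *Hmga2* were *Slc13a2* (0.15), Gm35853 (0.19) and *Smagp* (0.22), where *Hmga2* itself varied by 1.41. *Slc13a2* and Gm35853 were at 2.01 CPM or less in every sample and at 0 in HET3, and *Smagp*, a small membrane glycoprotein, went from 57.1 CPM in WT1 to 2.31 CPM in HET3. *Igf2bp2* stood at place 840 and *Arid3a* at place 1496 in this order for *Hmga2*, and *Igf2bp1* at place 2145 for *Lin28b*, so that many genes outside the program were nearer to both.

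The other genes of the pathway were taken from 6 lists, and none of their genes was called by edgeR in KO. DESeq2 with apeglm, by which 8.73% of the genes with an adjusted p were called higher and 0.801% lower, called 4 of the let-7 targets, 2 of the HMG and ARID relatives and 1 gene each of let-7 maturation, the let-7 hosts and the IGF axis higher, none of the IGF2BP partners, and none of any list lower. Of the 21 genes of let-7 maturation, silencing and decay, 2 were higher and 2 lower at an unadjusted p under 0.05 in KO against WT/HET, where 15.7% and 9.48% of all genes were, with a median log2 fold change of 0.16 against 0.13 over all genes, and 0 and 1 were without WT3 and HET3. *Ago2*, the slicing Argonaute that carries microRNAs, was at 60.0, 61.9 and 121 CPM in WT1, WT2 and WT3, at 109, 138 and 114 CPM in HET1, HET2 and HET3, and at 48.7 and 78.4 CPM in KO1 and KO2 (log2 fold change -0.97, edgeR adjusted p = 0.153, and -1.15 with an unadjusted p of 0.0393 without WT3 and HET3). *Tut4*, the uridylyl transferase that marks let-7 precursors held by LIN28A, had 0.76 (adjusted p = 0.152; 0.45 without WT3 and HET3). *Msi2*, an mRNA-binding protein of HSCs, had 1.67 (adjusted p = 0.148; 1.03 without WT3 and HET3, unadjusted p = 0.0703) and went from 108 CPM in KO1 to 15.0 CPM in HET3.

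Of 21 other known let-7 targets, 6 were higher and 4 lower at an unadjusted p under 0.05 (15.7% and 9.48% of all genes), with a median of -0.06 (0.13 over all genes), and without WT3 and HET3 2 were higher and 0 lower. A 7-base match was in the 3′UTR of 13 of the 21, where 10.2% of the tested genes with a 3′UTR hold one, or 15.9% of those with 1000 bases or more. The median 3′UTR was 2329 bases in this list and 1118 bases over the tested genes. The list was made of known targets, so this count is no separate support for the link to let-7. *Mycn*, the MYC family member of fetal and stem cells, was at 277, 257 and 17.6 CPM in WT1, WT2 and WT3, at 66.9, 38.0 and 2.31 CPM in HET1, HET2 and HET3, and at 259 and 165 CPM in KO1 and KO2 (log2 fold change 3.46 ± 0.94 SE, edgeR adjusted p = 0.148). Its lowest samples were those of *Hmga2*, and without them its log2 fold change was 2.45 (unadjusted p = 0.0258, adjusted p = 0.683). *Insr*, the insulin receptor, had 1.53 (adjusted p = 0.152; 0.77 without WT3 and HET3) and *Cbx2*, a Polycomb chromobox protein, had 1.73 (adjusted p = 0.148; 1.44 without them). *Cbx2* was at 16.2 and 21.8 CPM in KO1 and KO2, against 15.2 and 17.2 CPM in WT1 and WT2 and 5.04 to 7.02 CPM in WT3 and the HET samples.

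The genes that carry the let-7 hairpins bear on the other side of LIN28B. Of the 5 host names listed, 3 were matched. *Mir99ahg*, the non-coding host of a let-7c hairpin, was at 25.6, 33.1 and 2.08 CPM in WT1, WT2 and WT3, at 12.2, 3.94 and 0.0593 CPM in HET1, HET2 and HET3, and at 30.1 and 10.4 CPM in KO1 and KO2 (log2 fold change 3.31 ± 1.03 SE, edgeR adjusted p = 0.152, and 2.33 with an unadjusted p of 0.0311 without WT3 and HET3). *Huwe1*, a ubiquitin ligase gene with a let-7f hairpin, was at 99.5 to 127 CPM in all 8 samples (0.08, adjusted p = 0.737; -0.03 without WT3 and HET3). *Rrp1b*, at -0.73 (adjusted p = 0.222; -0.59 without them), spans no let-7 hairpin in the RefSeq positions. By position, and chosen after the data were seen, *Wdr82* (let-7g) was at 42.4 to 75.4 CPM, 6720427I07Rik (let-7a, let-7d and let-7f) at 1.18 to 3.56 CPM, D630033A02Rik (let-7i) at 0.147 to 1.22 CPM and *Spaca6* (let-7e) at 0.365 to 3.38 CPM, with unadjusted p in KO from 0.0992 to 0.654. Host transcripts are no measure of mature let-7.

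Of 18 partners of the IGF2BP proteins and genes of m6A, the mRNA mark they bind, 0 were higher and 5 lower at an unadjusted p under 0.05 (15.7% and 9.48% of all genes), with a median of -0.35 (0.13 over all genes), and 0 were in either direction without WT3 and HET3. *Elavl1* (HuR, a stabilizer of mRNAs) was at 577, 474 and 1045 CPM in WT1, WT2 and WT3, at 772, 798 and 1093 CPM in HET1, HET2 and HET3, and at 464 and 657 CPM in KO1 and KO2 (log2 fold change -0.80, edgeR adjusted p = 0.154). *Ybx1*, a cold-shock RNA-binding protein, had -0.85 (adjusted p = 0.172) and *Ythdc2*, an m6A reader with a helicase, had -0.70 (adjusted p = 0.152). In all 3 the highest samples were WT3 and HET3, and without them the values were -0.54, -0.71 and -0.60 with unadjusted p from 0.117 to 0.198.

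Of 14 genes of the IGF axis 9 were tested, of which 3 were higher and 1 lower at that p (15.7% and 9.48% of all genes), with a median of 0.46 (0.13 over all genes), and 1 and 0 without WT3 and HET3. *Igf2*, the fetal growth factor whose mRNA gave the IGF2BP proteins their name, was low, at 6.74, 7.90 and 0.469 CPM in WT1, WT2 and WT3, at 2.50, 2.27 and 0.475 CPM in HET1, HET2 and HET3, and at 6.85 and 3.05 CPM in KO1 and KO2 (log2 fold change 2.20 ± 0.83 SE, edgeR adjusted p = 0.166, and 1.09 with an unadjusted p of 0.267 without WT3 and HET3). *Igfbp4*, an IGF-binding protein, had 2.01 (adjusted p = 0.148; 1.43 without these samples, unadjusted p = 0.0386) and *Akt1*, a kinase below the IGF receptor, 0.46 (adjusted p = 0.16; 0.47 without them). Of the 16 HMG and ARID relatives 15 were tested, 7 higher and 2 lower at that p (15.7% and 9.48% of all genes) with a median of 0.53 (0.13 over all genes), and 0 in either direction without WT3 and HET3. *Arid5a*, an RNA-binding ARID protein, had a log2 fold change of 1.91 (adjusted p = 0.148), *Arid1b*, a subunit of the BAF remodeler, 0.79 (adjusted p = 0.153) and *Arid4b*, a partner of SIN3 repressor complexes, 0.54 (adjusted p = 0.148). These were 1.52, 0.39 and 0.50 without WT3 and HET3, with unadjusted p from 0.0935 to 0.257. *Arid5a* was at 16.5 and 9.84 CPM in KO1 and KO2, between WT1 and WT2 (23.3 and 29.8 CPM) and the other 4 samples (2.79 to 8.30 CPM).

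RefSeq promoter windows, 250 bases before to 50 after a start site on GRCm38.p6, were matched for 6 of the 8 genes. The κB consensus, searched on both strands, was in 1 of the 6 (*Lin28a*), where 4.5% of 32851 windows hold it. The MYC E-box CACGTG, the same on both strands, was in *Lin28b* and *Igf2bp3*, where 7.2% of windows hold it. These counts describe letters in the windows and say nothing of NF-κB or MYC binding.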

How the data were processed

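Bulk RNA-seq libraries from 8 samples were analysed. Raw counts per Ensembl gene were deposited by the authors. Per the methods and the submitters' processing notes, reads were trimmed (Trim Galore 0.6.6), aligned to GRCm38 (STAR 2.7.8), kept where unique and counted by STAR. Unique reads lower the counts of near-identical copies. The strand column is not given in the sources used here. A second deposited table, of values on a log2 scale, was not used.

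Genes with 10 or more reads over the 8 samples (20610) were tested with edgeR 4.0.16 in R 4.3.3 (legacy quasi-likelihood form, TMM, sex and genotype in the model, WT and HET pooled) and called at a Benjamini-Hochberg adjusted p under 0.05 and a log2 fold change beyond 1 in either direction. HET and WT were compared over their 6 samples. By the replicate numbers of the labels, deviations from the group means correlated at 0.293, 0.198 and 0.59 in the 3 pairs of WT and HET, which were taken as paired. In the pairs with KO, which were not, they correlated from -0.346 to 0.278. These ranges overlap, and the 0.59 is that of WT3 and HET3, so the correlations do not show that the samples were paired. DESeq2 1.42.0 with apeglm 1.24.0 was an alternative. The edgeR fit was tested on simulated data. Exact two-sided permutation tests used log2 CPM with a prior count of 2. RPKM used merged exons of GENCODE M21. Of the 55487 identifiers, 55227 were in that annotation. Reads carry no molecular identifiers, so the floor of 3 reads covers counting error only.

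The 8 genes and all lists were chosen with earlier results of these data known. Named genes are the 8, *Nfkbia*, in each list up to 3 genes with the lowest unadjusted p in KO and a mean of 1 CPM or more, and the 3 genes nearest to *Lin28b* and to *Hmga2*. Marker genes are named only where a result turns on them. Protein sequences were not used here.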

Additional observations from a re-analysis of the deposited data

How the results depend on the processing

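Of 161 log2 fold changes of the 7 genes in KO against WT/HET over 23 alternatives, 152 kept their direction and side of the call, 7 passed the call that had not (*Igf2bp2* 5 times, *Hmga2* 2 times) and 2 changed sign, both of *Igf2bp3* (-0.058 with upper-quartile scaling and -0.0071 with female samples only). The 152 is no measure of stability, since some values could hardly move. With sex in the model, leaving out a male sample or using female samples only keeps the same contrast. Without WT1 or without WT2, *Hmga2* stayed at 1.69 and *Igf2bp2* at 1.80. Summing *Hmga1* and *Hmga1b* changes the counts of no other member. In HET against WT 118 of 126 kept their direction and side of the call, and 6 changed sign. *Hmga2* was at 0.028 without WT2, 0.77 without HET1 and 0.16 without HET3, and *Hmga1*, *Igf2bp1* and *Arid3a* turned without HET1. With 1 sample left out *Hmga2* ran from -1.32 to 0.77, *Hmga1* from -0.091 to 0.54, *Igf2bp1* from -0.15 to 0.76 and *Arid3a* from -1.01 to 0.12. In male against female 25 of 28 kept both and 0 changed sign. Genes called in KO (0) became 1825 with DESeq2, 1463 with apeglm, 1 with the version 4 form of edgeR, 1106 with no filter beyond 1 read, 661 with WT alone as the reference, and 0 to 730 with 1 sample left out (730 without HET2, 8 without HET1). The members at an unadjusted p under 0.05 in KO (2) became 4 with library size only and 0 with no sex term. They became 3 with DESeq2, apeglm, the version 4 form, no filter beyond 1 read or WT alone as the reference. They became 1 without WT3 and HET3 and 1 with HET alone as the reference. With 1 WT or HET sample left out they ran from 1 to 4 (1 without WT3 or HET3, 4 without HET2).

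Genes called in HET against WT (0) became 64 with DESeq2, 16 with apeglm, 131 with no filter beyond 1 read, 1964 without WT3 and HET3, and 0 to 135 with 1 sample left out. The members at that p (1) became 0 with DESeq2, apeglm, the version 4 form, RLE scaling, library size only, filterByExpr or no sex term, 2 with no filter, 6 without WT3 and HET3, and 0 to 6 with 1 sample left out. In male against female the genes called (4) became 2988 with DESeq2 and 2 without WT3 and HET3. The members at that p (5) became 3 in WT and HET samples only and 1 without WT3 and HET3, as all genes at that p went from 6679 to 4669 and 1340. The members at that p became 6 with *Hmga1* and *Hmga1b* summed, with 6683 of all genes at that p. The cause of these moves was not tested.

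With the replicate number as a block, the members at that p became 1 in KO and 3 in HET against WT, and genes at that p in KO went from 5196 to 589. The KO samples were not taken as paired with the others, and the pairs of WT and HET were assumed. The alternatives without WT3 and HET3 and with *Hmga1* and *Hmga1b* summed were chosen after the data were seen. The 7 genes had 153 to 4738 reads per sample. For *Lin28a* it sets the bound given above.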
